A study of Mus musculus with 27 samples.

Results

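Normal thyroid of 9 mice that had not been exposed (NCT, normal control tissue) differed widely from mouse to mouse in the level of Ucp1, the transcript of the uncoupling protein of brown fat. The 9 libraries, 1 from each mouse, were set apart by that level, in CPM, which is the gene's share of the library's counts on the usual fixed scale: 4 had Ucp1 above 150 CPM and are called Ucp1-high here, and 5 were at or below 150 CPM and are called Ucp1-low. They are 9 of 27 libraries of a mouse thyroid study that measured RNA in laser-captured tissue. The other groups were 9 libraries of normal tissue from exposed mice with lesions nearby (NT) and 9 of proliferative lesions (PL) from the same exposed mice. The Ucp1-high libraries were 2 females (replicates 2 and 5) and 2 males (replicates 6 and 9), and the Ucp1-low libraries were 4 females (replicates 1, 3, 4 and 7) and 1 male (replicate 8). No transgene or treatment is named for the control mice, and strain, age and the dose of the exposed mice are not in the labels. Values below are listed in the order of these replicate numbers, replicates 2, 5, 6 and 9 for Ucp1-high and replicates 1, 3, 4, 7 and 8 for Ucp1-low.

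Brown fat burns fatty acids to make heat. Its cells hold many small lipid droplets and densely packed mitochondria, and the uncoupling protein lets protons flow back into the mitochondrion without making ATP. White fat cells store triglyceride in a single large droplet and secrete hormones, and they share with brown fat cells the genes of fat uptake, fat synthesis and fat release. In mice, lobes of brown fat lie in the neck close to the thyroid.

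Ucp1 was at 248, 209.5, 305 and 518 CPM in the Ucp1-high libraries, against 96.8, 72.4, 79.4, 77.6 and 85.1 CPM in the Ucp1-low libraries. Just inside the threshold stood replicate 5 at 209.5 CPM and just outside it replicate 1 at 96.8 CPM. These values chose the sets and are given as a description only. The Ucp1-low libraries cannot be called free of brown fat transcripts: each held 281 to 810 counts of Ucp1, and their Ucp1 lay above the medians of 12.6 CPM in NT and 12.5 CPM in PL. Both sets are therefore named by their Ucp1 level.

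NCT libraries held 2923851 to 10202813 counts, with 4622595, 7998710, 3822281 and 2923851 in the Ucp1-high and 6155906, 4531146, 10202813, 3620106 and 6649795 in the Ucp1-low libraries. The shallowest, replicate 9, also held 2 transcripts far above the other NCT libraries, namely Lipf, a gastric lipase, at 7552 CPM and Lyz2, a lysozyme, at 12742 CPM. Pth, the parathyroid hormone, was at 54.1, 4602, 289.6 and 55.4 CPM in the Ucp1-high and 578, 109, 63.4, 936 and 2488 CPM in the Ucp1-low libraries, with no split between the sets. At 5 CPM a gene rested on 14.6 counts in replicate 9 and 51 counts in replicate 4, the deepest. A gene at a count of 0 could still be at up to 1.03 CPM in replicate 9 and 0.294 CPM in replicate 4 (3 counts), a limit that covers counting error only.

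Which genes moved with Ucp1 was described by the difference of mean log2(CPM + 1), Ucp1-high minus Ucp1-low, and by whether all 4 libraries lay beyond all 5. Genes with a mean of at least 5 CPM over the 9 libraries were counted. The sets were chosen by a measured value in these libraries, so no gene in this contrast was tested. In all, 80 of 11616 genes (0.689%) were higher in every Ucp1-high library than in every Ucp1-low library, and 226 (1.95%) were lower in every one. Genes of fat, lipid and mitochondrial metabolism made up 42 of the 80, or 52.5%. Those 42 came from 17 lists with 283 distinct genes, of which 255 were counted: 16.5% of the counted genes were higher without overlap and 4 genes (1.57%) lower. Their median difference was 0.24, against −0.17 for all genes counted.

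The split of all genes depended on the scaling. With the trimmed mean of M values (TMM) the median of all genes was −0.02, and 132 genes were higher and 82 lower without overlap. The listed genes were still 42 higher, of which 36 were also higher on plain CPM, and 1 was lower, against 4 on plain CPM. Listed genes called lower below are so called on plain CPM. List medians below are on plain CPM. Those over all 9 libraries are to be read against the all-gene median of −0.17, so that a small negative difference is no lower than that of most genes. The all-gene median itself was −0.02 in females alone. It ran from −0.23 without replicate 5 to −0.09 without replicate 9 as single libraries were left out. In bulk RNA, more cells of a type cannot be told apart from more RNA per cell.

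**Figure D1:**
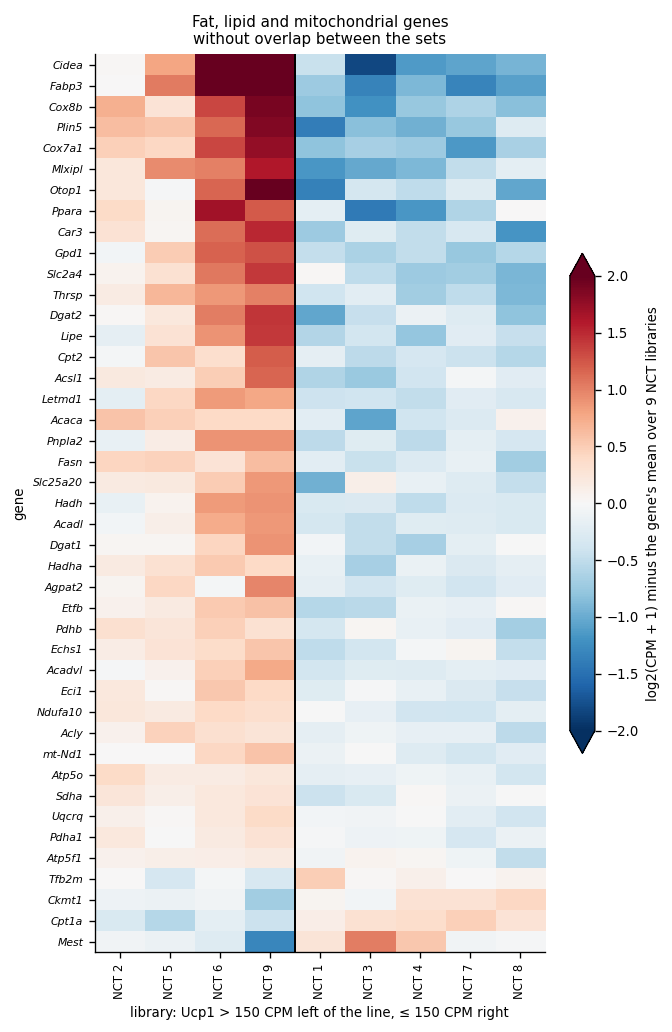
Level of 43 listed fat, lipid and mitochondrial genes without overlap in the 9 NCT libraries, as log2(CPM + 1) minus the gene's mean over the 9 libraries, in a color scale that stops at 2 on either side of 0. The Ucp1-high libraries stand left of the line and the Ucp1-low libraries right of it; 39 of the genes shown are higher and 4 are lower left of the line.

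Promoters of the genes higher without overlap were searched for AGGTCA, the core motif that nuclear receptors such as Ppara and the thyroid hormone receptors bind, on both strands within 250 bases upstream of the gene start. RefSeq promoter sequences (GRCm38.p6) matched 53 of the 80 genes by symbol, and 8 of the 53 (15.1%) held the motif, against 15.8% of 27025 genes in the same table. The share was thus at the background. The windows of 4 genes described below are given to show where the match lies, 5′ to 3′ on the strand of the gene, with the motif in capitals.
Plin5 (chr17:56117686-56117745, minus strand): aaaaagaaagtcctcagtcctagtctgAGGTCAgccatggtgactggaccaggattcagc
Letmd1 (chr15:100468783-100468842, plus strand): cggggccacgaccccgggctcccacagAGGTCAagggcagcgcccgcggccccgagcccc
Acadvl (chr11:70015483-70015542, minus strand): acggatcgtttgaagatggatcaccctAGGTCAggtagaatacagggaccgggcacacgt
Acly (chr11:100528008-100528067, minus strand): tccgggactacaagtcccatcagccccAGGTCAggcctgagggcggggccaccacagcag
The motif began 170 bases before the annotated start of Plin5, 201 before that of Letmd1, 87 before that of Acadvl and 40 before that of Acly. A match is a description of the letters and no sign of binding.

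Among the thermogenic genes of brown fat, Cidea, which encodes a lipid droplet protein typical of brown fat cells, had the largest difference. It was at 60.4, 104, 305 and 283 CPM in the Ucp1-high libraries, against 43.4, 16.1, 26.5, 28.2 and 30.7 CPM in the Ucp1-low libraries, a difference of 2.42. The sets did not overlap, and replicates 6 and 9 were highest. Cox8b, on chromosome 7 (140898945 to 140900446, minus strand, GRCm38), encodes a subunit of cytochrome c oxidase used in brown fat and muscle. It was at 106, 77.5, 164 and 243 CPM, against 36.4, 27.1, 37.6, 41.4 and 35.6 CPM (1.90). Cox7a1, on the same chromosome (30184144 to 30186078, plus strand), encodes another such subunit of brown fat, heart and muscle and was at 84.6, 81.1, 154 and 207 CPM, against 34.3, 38.0, 36.4, 26.8 and 38.2 CPM (1.79). Both subunits were higher in each of the Ucp1-high libraries than in any Ucp1-low library.

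Otop1, a proton channel found in brown fat, was at 5.41, 4.38, 11.2 and 23.3 CPM in the Ucp1-high and 1.14, 3.31, 2.84, 3.59 and 1.65 CPM in the Ucp1-low libraries (1.58). Letmd1, a mitochondrial protein needed for brown fat function in mice, was at 26.6, 41.3, 56.5 and 53.4 CPM, against 22.7, 23.0, 21.7, 26.2 and 24.5 CPM (0.83). These complete the 5 of 15 counted thermogenic genes that were higher without overlap. None of the 15 was lower without overlap, and the list median was 0.83. Ppargc1b, a coactivator of mitochondrial genes, was 1.34 apart and Adrb3, the beta-3 adrenergic receptor through which cold acts on fat, 1.07 apart, both with overlap. Ebf2, a transcription factor of the brown fat lineage, was at 20.1, 25.5, 24.6 and 35.9 CPM, against 15.9, 15.2, 12.1, 15.5 and 20.3 CPM (0.70), and overlapped only in replicate 2, just below replicate 8.

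Other brown fat genes did not follow Ucp1. Ppargc1a, a coactivator that cold induces in brown fat, was at 108, 69.5, 66.5 and 52.3 CPM in the Ucp1-high libraries and 71.2, 71.1, 57.0, 66.8 and 93.5 CPM in the Ucp1-low libraries, a difference of 0.01. Prdm16, a transcription regulator of brown fat identity, differed by −0.13 and Dio2, the deiodinase that makes active thyroid hormone in brown fat, by 0.33, both with overlap. Slc29a1 had the most negative difference of the 15 counted members, −0.36, with overlap, and 13 of the 15 were positive. Of the 5 members that were not counted, Elovl3 differed by 0.40, Lhx8 by −0.27 and Ucp3 by 0.79, all with overlap and at low levels. Elovl3 was at 0 CPM in replicate 6 and 0.34 CPM in replicate 9, the libraries with the most Ucp1. Zic1 and Cpt1b were listed at 0 in all 9 NCT libraries. How overlapping genes were counted is not known, so no level is read from these zeros.

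Markers of skeletal muscle also differed between the sets, with overlap. The skeletal muscle list (12 of 15 genes counted) had a median difference of 2.27, the largest of any list here. Its summed level was 508, 607, 717 and 129 CPM in the Ucp1-high libraries, against 9.75, 387, 145, 17.1 and 253 CPM in the Ucp1-low libraries, so the sets overlapped and none of its genes split them. Replicate 9, with the highest Ucp1, had the lowest muscle level of the Ucp1-high set, and replicate 3, with the lowest Ucp1, had 387 CPM. The part of muscle tissue in the levels of Cox8b, Cox7a1 and other genes that muscle also uses was not tested. Thermogenic genes summed to 596, 584, 1011 and 1157 CPM in the Ucp1-high libraries, against 379, 336, 340.1, 354 and 423 CPM in the Ucp1-low libraries, a ratio of means of 2.28, with no overlap.

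**Figure D2:**
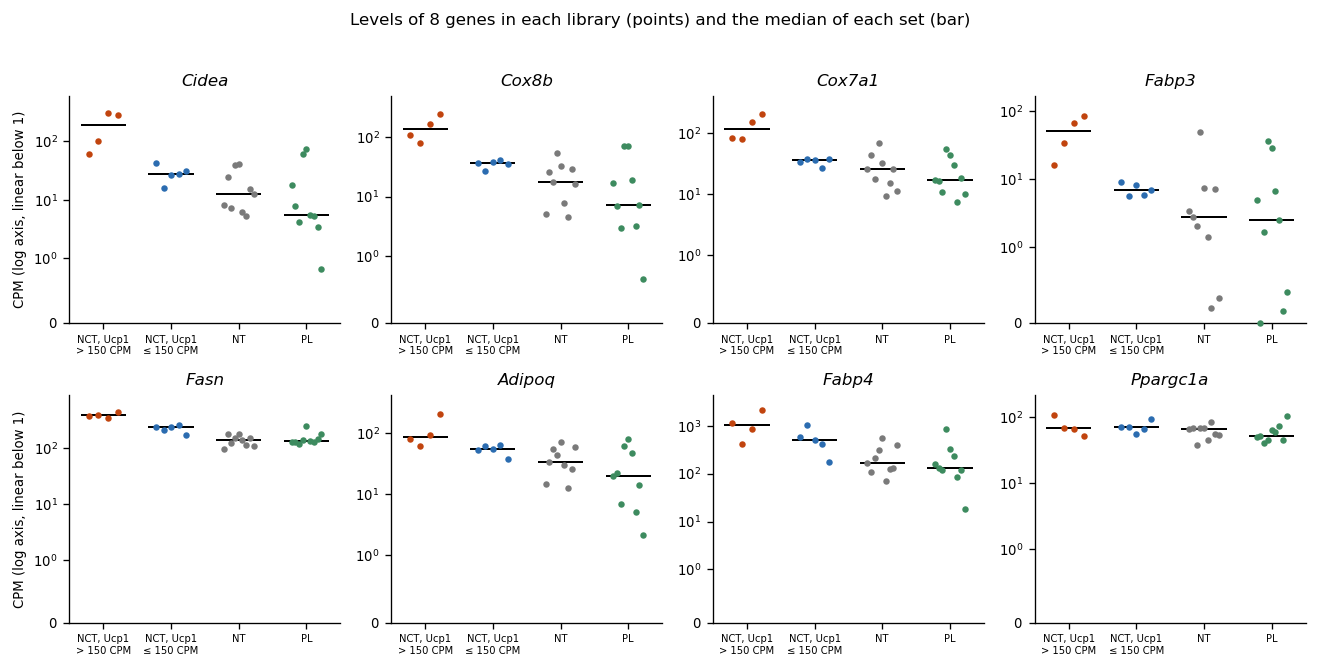
Level of 8 genes in each library in CPM on a log axis that is linear below 1; points are libraries and bars are medians, for Ucp1-high NCT, Ucp1-low NCT, NT and PL from left to right. Cidea, Cox8b, Cox7a1, Fabp3 and Fasn do not overlap between the NCT sets, whereas Adipoq, Fabp4 and Ppargc1a do.

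Sex was not balanced between the sets. In the females alone, 2 Ucp1-high libraries against 4 Ucp1-low, Cidea differed by 1.52, Cox8b by 1.34 and Cox7a1 by 1.28. These genes did not overlap in the full sets, so they could not overlap in a part of them. The thermogenic list had a median of 0.55 and the general adipocyte list of 0.35 in females, against −0.02 for all genes, and the muscle list of 3.05. Of the listed genes 57 (22.4%) were higher without overlap there, and of all genes 5.29%. The 57 hold all 42 of the full sets, as any part of the sets must. Of the males, replicates 6 and 9 had Cidea at 305 and 283 CPM, against 30.7 CPM in replicate 8, the only Ucp1-low male.

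Transcripts that all fat cells share were higher as a group but split the sets less cleanly. All 19 counted genes of the general adipocyte list had a positive difference, against 26.1% of all genes, with a median of 0.89, and 5 were higher without overlap. Adipoq, which encodes the fat hormone adiponectin, was at 80.3, 60.5, 93.1 and 205 CPM in the Ucp1-high libraries, against 52.3, 60.9, 54.1, 63.0 and 36.7 CPM in the Ucp1-low libraries (0.89). The sets overlapped by a small margin, since replicate 5 lay below replicates 3 and 7. Fabp4, the fatty acid carrier of fat cells, was at 1164, 411, 875 and 2153 CPM, against 580.1, 1045, 511, 425 and 175 CPM (1.05), and overlapped widely. Leaving out replicate 9 lowered the median of the list to 0.60.

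The 5 that split the sets were Car3, Gpd1, Slc2a4, Lipe and Pnpla2. Car3, a carbonic anhydrase abundant in fat and muscle, was at 830.3, 699, 1469 and 1931 CPM in the Ucp1-high and 407, 571, 483, 544 and 297 CPM in the Ucp1-low libraries (1.34). Gpd1, which makes the glycerol backbone of triglyceride, was at 115, 171, 272 and 291 CPM, against 85.6, 76.8, 84.8, 70.4 and 80.2 CPM (1.31). Slc2a4, the insulin-regulated glucose transporter, was at 18.0, 21.3, 36.6 and 47.2 CPM, against 17.4, 11.7, 9.90, 10.2 and 8.57 CPM (1.27). In each of these the lowest Ucp1-high library was replicate 2 or 5, and for Slc2a4 replicate 2 stood only just above replicate 1. Lipe and Pnpla2 are described with the lipases.

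Transcripts known from white fat gave no such pattern. Only 4 of the 10 listed genes were counted, with a median of 0.08, which ran from −0.29 without replicate 9 to 0.24 without replicate 6, and a ratio of summed means of 1.001. Retn, the hormone resistin, was at 24.0, 20.5, 7.06 and 36.9 CPM in the Ucp1-high and 15.1, 14.8, 16.5, 26.5 and 12.03 CPM in the Ucp1-low libraries (0.21), with overlap. Mest, a gene linked to fat cell enlargement, was lower without overlap, at 24.0, 23.1, 20.9 and 9.58 CPM, against 30.4, 52.3, 37.0, 24.0 and 24.8 CPM (−0.78). The sets all but touched for Mest, with replicate 2 at 24.01 CPM and replicate 7 at 24.03 CPM. Lep, the hormone leptin, was at most 2.65 CPM in the Ucp1-low libraries and reached 11.3 CPM in replicate 9 alone, with a mean too low to be counted.

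Fat synthesis was among the groups that differed most. Of 21 counted genes, 8 were higher without overlap and 0 lower, with a median of 0.58, or 0.28 in females alone. Fasn, the fatty acid synthase on chromosome 11 (120805846 to 120824547, minus strand), was at 376, 383, 336 and 429.6 CPM in the Ucp1-high libraries, against 240.4, 205, 232, 252 and 172 CPM in the Ucp1-low libraries (0.80). Acaca, which makes the malonyl-CoA that Fasn uses, was at 103, 96.5, 92.1 and 91.7 CPM, against 59.9, 32.9, 52.5, 57.2 and 73.8 CPM (0.83). Unlike Cidea, neither was highest by far in replicates 6 and 9: Fasn spanned only 336 to 430 CPM over the Ucp1-high libraries. Acly, which makes acetyl-CoA from citrate, was at 125, 162, 147 and 140.2 CPM, against 104, 111, 104, 105 and 81.1 CPM (0.50).

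Mlxipl, a transcription factor that links sugar to fat synthesis, was at 9.73, 16.6, 17.5 and 27.02 CPM in the Ucp1-high libraries, against 3.09, 3.53, 3.92, 5.52 and 7.07 CPM in the Ucp1-low libraries (1.70). Thrsp, a thyroid hormone responsive protein of fat synthesis, was at 229.5, 325, 376 and 413 CPM, against 156, 177, 127, 144 and 109 CPM (1.22). For both, the lowest Ucp1-high library stood clear of the highest Ucp1-low one. The last steps of triglyceride synthesis differed as well. Dgat2, which adds the third fatty acid, was at 78.7, 89.9, 158 and 211 CPM, against 37.0, 55.8, 71.7, 64.9 and 43.9 CPM (1.21), and Dgat1, which does the same, differed by 0.64. Agpat2, an acyltransferase earlier in that path, was at 55.6, 71.5, 52.3 and 106 CPM, against 47.4, 41.0, 45.2, 40.9 and 45.6 CPM (0.63).

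Not every gene of fat synthesis took part. Elovl5, an enzyme that lengthens fatty acids, differed by −0.02 with overlap. Elovl6, another such enzyme, was −0.33, Scd2, a desaturase, −0.12, and Me1, which makes NADPH for synthesis, −0.07. Scd1, the main desaturase of fat, reached 3865 CPM in replicate 9 but was within the range of the Ucp1-low libraries in replicates 2 and 6, at 1139 and 928 CPM.

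Genes of the lipid droplet and of fat release included 3 of 14 that were higher without overlap, with a median of 0.49, or 0.32 in females alone, and 0 lower. Plin5, which tethers droplets to mitochondria, was at 10.2, 9.75, 15.2 and 25.3 CPM in the Ucp1-high libraries, against 1.79, 3.09, 2.74, 3.31 and 5.11 CPM in the Ucp1-low libraries (1.88). Lipe, the hormone-sensitive lipase, was at 48.2, 66.8, 103 and 147 CPM, against 36.2, 42.2, 31.7, 46.4 and 39.2 CPM (1.09). Pnpla2, the lipase that starts triglyceride breakdown, was at 131, 162, 273 and 272 CPM, against 101, 123, 101, 127 and 115 CPM (0.81). The sets stood apart for each of these, narrowly for Lipe and Pnpla2. Plin1, which coats the droplets of fat cells, overlapped at 1.08, and Plin3, a droplet protein of many cell types, differed by 0.01.

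For fatty acid uptake, 3 of 16 counted genes were higher without overlap and 0 lower, with a median of 0.33, or 0.21 in females alone. Fabp3, the fatty acid carrier of heart, muscle and brown fat on chromosome 4 (130308595 to 130315463, plus strand), was at 16.2, 34.0, 67.0 and 84.8 CPM in the Ucp1-high libraries, against 9.26, 5.74, 8.14, 5.80 and 7.07 CPM in the Ucp1-low libraries (2.42). Acsl1, which activates fatty acids with coenzyme A, was at 133, 130.0, 164 and 262 CPM, against 76.2, 68.9, 88.9, 114 and 99.1 CPM (0.90). The third was Slc2a4, above. Lpl, the lipoprotein lipase that frees fatty acids from blood lipids, was at 431, 309.6, 596 and 751 CPM, against 336, 298, 229, 338 and 244 CPM (0.79), and Cd36, a fatty acid receptor, differed by 1.37, with overlap through replicate 5 for Lpl and replicate 2 for Cd36. Fabp5, a carrier of skin and other tissues, differed by 0.08.

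**Figure D3:**
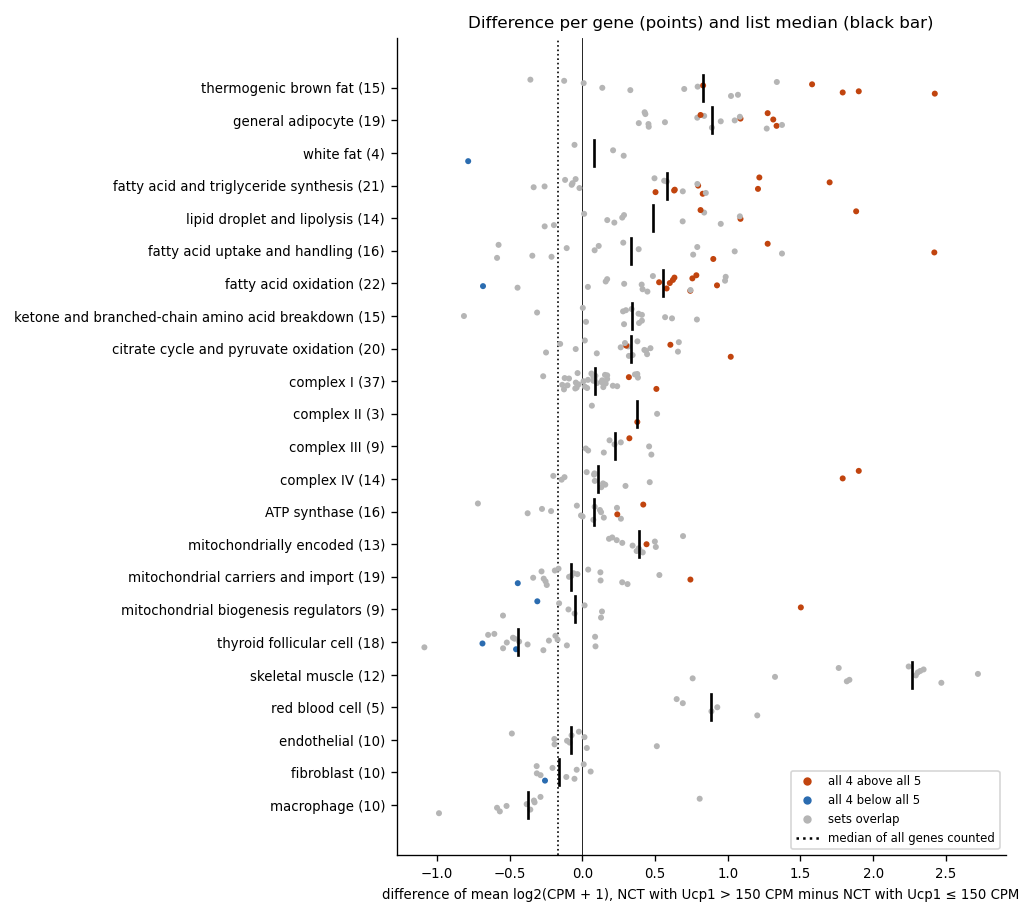
Difference of mean log2(CPM + 1), Ucp1-high minus Ucp1-low NCT, for each counted gene of 17 fat, lipid and mitochondrial lists and 6 lists of other cell types, with the number of genes in parentheses, the list median as a black bar and the median of all counted genes (−0.17) as a dotted line. Points are red where all 4 Ucp1-high libraries were above all 5 Ucp1-low libraries and blue where they were below. Lists of fat, synthesis and oxidation lie to the right, those of complex I and ATP synthase stand near 0, and skeletal muscle stands farthest right with overlap in all 12 genes.

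Fatty acid oxidation held the most genes that split the sets, 9 of 22, with 1 lower and a median of 0.55, or 0.30 in females alone. Cpt2, which releases fatty acids inside the mitochondrion, was at 28.6, 43.5, 37.2 and 69.4 CPM in the Ucp1-high and 25.7, 20.1, 22.9, 21.5 and 19.4 CPM in the Ucp1-low libraries (0.93). Slc25a20, which carries acylcarnitine across the inner membrane, was at 34.6, 34.9, 43.7 and 56.4 CPM, against 15.1, 33.1, 27.2, 25.4 and 21.5 CPM (0.78). Acadl and Acadvl, which take the first oxidation step, differed by 0.74 and 0.58. The remaining 5 were Hadh (0.76), Hadha (0.63), Echs1 (0.60) and Eci1 (0.53), enzymes of the later steps, and Etfb (0.62), which passes the electrons on.

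One member went the other way. Cpt1a, the form of the entry enzyme found in liver and many other tissues, was at 49.3, 40.8, 53.4 and 45.1 CPM in the Ucp1-high libraries, against 67.1, 75.7, 78.2, 85.4 and 74.4 CPM in the Ucp1-low libraries (−0.68), lower without overlap. The muscle and brown fat form of the enzyme is encoded by Cpt1b, for which no level could be read. Summed over the list, oxidation genes were at 1738, 1734, 2394 and 2636 CPM in the Ucp1-high libraries, against 1439, 1546, 1458, 1496 and 1413 CPM in the Ucp1-low libraries, a ratio of means of 1.45.

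Pyruvate oxidation and the citrate cycle had 3 of 20 genes higher without overlap and 0 lower, with a median of 0.33, or 0.16 in females alone. Pdhb, a subunit of pyruvate dehydrogenase, was at 134, 127, 149.6 and 132 CPM in the Ucp1-high libraries, against 84.0, 110.3, 96.9, 91.7 and 66.5 CPM in the Ucp1-low libraries (0.61). Pdha1, another subunit of that enzyme, was at 233, 202, 229 and 248 CPM, against 198, 188, 191, 159.9 and 186 CPM (0.30). Neither overlapped between the sets. Mdh2, the last enzyme of the cycle, differed by −0.05, and Suclg2, a subunit of a GTP-forming ligase, by 0.02. Ketone and branched-chain amino acid breakdown had a median of 0.34, or 0.22 in females alone, over 15 genes and none without overlap in either direction.

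The complexes of the respiratory chain differed among themselves, all with a median below that of fat oxidation. Complex I had 2 of 37 genes higher without overlap, among them Ndufa10 (0.51), with a median of 0.09. Complex II had 1 of 3, Sdha (0.38), and a median of 0.38, and complex III 1 of 9, Uqcrq (0.32), and a median of 0.22, and all 12 of these genes had a positive difference. Complex IV had 2 of 14, Cox8b and Cox7a1, and a median of 0.11. Their ubiquitous counterparts Cox8a and Cox7a2 differed by 0.03 and −0.12, with overlap. ATP synthase had 2 of 16, Atp5o (0.42) and Atp5f1 (0.24), and a median of 0.08. The ratio of summed means was 1.03 for complex I, 1.26 for complex II, 1.15 for complex III, 1.03 for complex IV and 1.01 for ATP synthase, against 1.45 for fatty acid oxidation. Single libraries moved the smaller medians: complex I ran from 0.01 without replicate 8 to 0.14 without replicate 5, complex IV from 0.02 without replicate 2 to 0.18 without replicate 5 (0.17 without replicate 1, 0.07 without replicate 9), and ATP synthase to 0.04 without replicate 6 and 0.05 without replicate 7. Complex I was at 0.05 without replicate 9. In females alone the medians were 0.01 for complex I, 0.18 for complex II and 0.11 for complex III. Those of complex IV (−0.01) and ATP synthase (−0.01) were on the other side of 0 there, near the all-gene median of −0.02.

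All 13 protein genes of mitochondrial DNA had a positive difference, with a median of 0.39, and mt-Nd1, a complex I subunit, was higher without overlap, at 6241, 6239.8, 8270.2 and 9252 CPM in the Ucp1-high libraries and 5738, 6209, 5217, 4837 and 5301 CPM in the Ucp1-low libraries. Together the 13 took 8.84, 8.45, 12.1 and 11.8% of counts in the Ucp1-high libraries, against 9.06, 8.72, 8.14, 6.49 and 7.42% in the Ucp1-low libraries. Replicates 6 and 9 stood above the others, and replicates 2 and 5 lay within the Ucp1-low range. The widest 95% Wilson interval, for replicate 9, ran from 11.7% to 11.8% and covers counting error only. In females alone the median was 0.10.

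**Figure D4:**
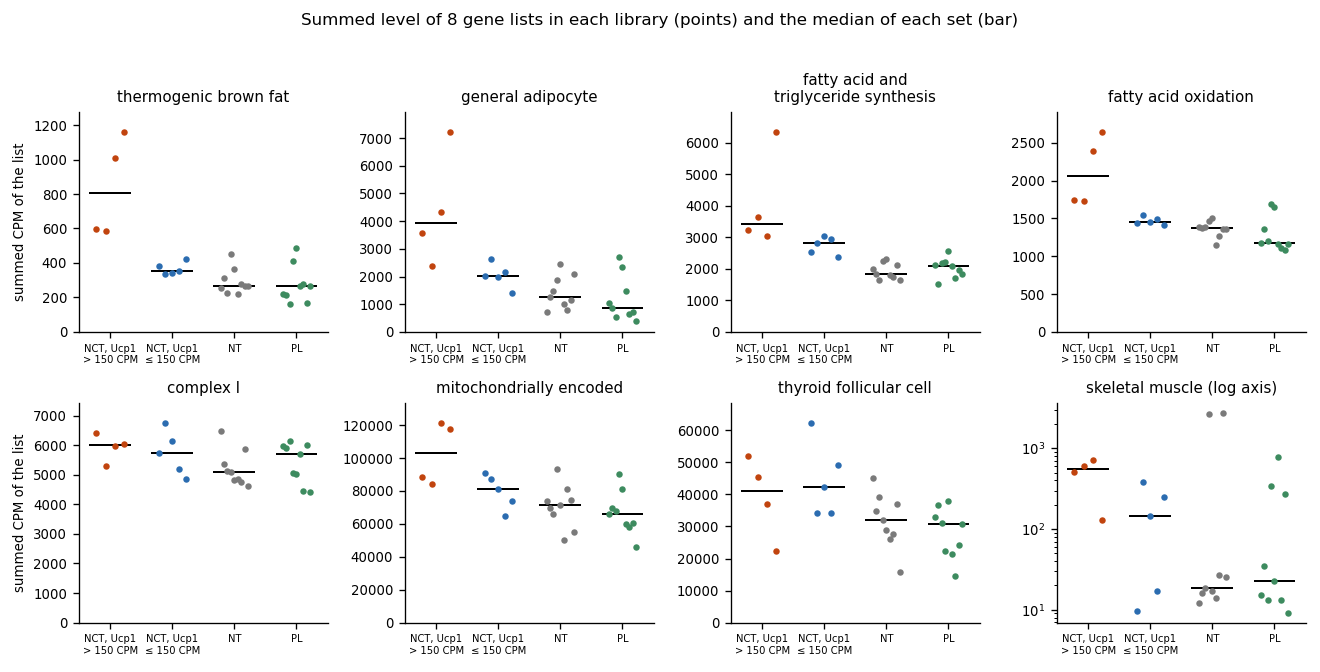
Summed CPM of 8 gene lists in each library; points are libraries and bars are medians, for Ucp1-high NCT, Ucp1-low NCT, NT and PL from left to right, on linear axes from 0 except for skeletal muscle, which is on a log axis. Thermogenic and fatty acid oxidation sums do not overlap between the NCT sets; complex I, thyroid follicular and skeletal muscle sums do.

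Carriers and regulators of mitochondria gave no common direction. Of 19 counted carrier and import genes, 1 was higher without overlap and 1 lower, which was Ckmt1, a mitochondrial creatine kinase (−0.44). Their median was −0.08 and 0.07 with TMM scaling, and −0.01 without replicate 9, −0.05 without replicate 4 and −0.13 without replicate 8. Of 9 counted regulators, Ppara, a nuclear receptor that turns on fat oxidation, was at 16.2, 12.8, 41.1 and 29.8 CPM in the Ucp1-high libraries, against 10.6, 3.97, 4.90, 7.73 and 12.3 CPM in the Ucp1-low libraries (1.503), without overlap. Tfb2m, a factor for mitochondrial transcription, was lower without overlap (−0.31), with replicate 2 at 36.6 CPM only just below replicate 7 at 36.7 CPM. The regulators' median of −0.05 also changed sign with TMM scaling, to 0.08, and ran from −0.12 without replicate 8 to 0.11 without replicate 7 as single libraries were left out, with 0.05 without replicate 1. Tfam, which packs mitochondrial DNA, differed by −0.16 with overlap.

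Ratios to Ucp1 spread more over the libraries for some genes than for others. Ucp1 chose the sets, so the ratios are a description over all 9 libraries and are not compared between the sets. Cox8b stood at 0.370 to 0.540 of the Ucp1 level over all 9 libraries, lowest in replicate 5 and highest in replicate 6. Cox7a1 stood at 0.341 to 0.524 of it, lowest in replicate 2 and highest in replicate 3. Cidea stood at 0.223 to 1.003 of the Ucp1 level, lowest in replicate 3 and highest in replicate 6. Fabp4, which is on the general adipocyte list, stood at 1.96 to 14.4 times the Ucp1 level, lowest in replicate 5 and highest in replicate 3. A ratio between genes also holds their own counting efficiency, so only its spread over libraries is of use here.

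Some of the largest differences lay outside the lists. Among the 12 protein-coding genes with the largest positive difference among those without overlap at a mean of at least 20 CPM were 8 listed genes, described above, and unlisted genes such as Slc36a2, Pank1 and Cdo1. Slc36a2, an amino acid transporter enriched in brown fat, was at 36.3, 33.8, 69.9 and 127 CPM in the Ucp1-high libraries, against 13.6, 8.39, 15.2, 24.9 and 21.5 CPM in the Ucp1-low libraries (1.81). Pank1, which starts the making of coenzyme A, was at 38.9, 46.5, 93.4 and 63.6 CPM, against 22.3, 13.9, 23.7, 22.7 and 24.8 CPM (1.40). Cdo1, a cysteine dioxygenase abundant in fat, was at 57.8, 80.4, 136 and 224 CPM, against 48.6, 38.0, 30.8, 56.1 and 52.0 CPM (1.29). None of these overlapped between the sets.

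Further unlisted genes without overlap were picked out after their values were seen. Among them were Adig, a protein of fat cell development (1.11), Mrap, which brings the corticotropin receptor to the surface of fat and adrenal cells (1.05), Aifm2, a mitochondrial and droplet oxidoreductase (1.05), Ech1 (0.59), an enzyme of unsaturated fatty acid oxidation, and Phyh (0.59) and Pex11a (0.59), which belong to peroxisomes. Gpd2, the mitochondrial partner of Gpd1, was at 220.4, 232, 268 and 325 CPM in the Ucp1-high libraries, against 169, 175, 164, 170.4 and 169.8 CPM in the Ucp1-low libraries (0.60). Its Ucp1-low values spanned only 164 to 175 CPM. Hk2, the hexokinase of fat and muscle, was 1.02 apart and Slc16a1, a lactate carrier, 1.48 apart.

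The 8 largest negative differences by the same rule peaked at −1.51, smaller in size than the largest positive one, 2.42 for Cidea. Cst6, a protease inhibitor, was at 11.2, 7.88, 17.8 and 10.9 CPM in the Ucp1-high libraries, against 36.7, 23.8, 55.3, 37.3 and 27.4 CPM in the Ucp1-low libraries (−1.51). Ucp2, a relative of Ucp1 made in many tissues, was at 53.9, 60.8, 67.0 and 50.6 CPM, against 96.5, 75.7, 101, 138 and 109.9 CPM (−0.81), and lay below in every Ucp1-high library. Hmox1, the heme oxygenase that macrophages use to break down heme, differed by −0.96. The others were Lmod2, a muscle filament protein (−1.15), Cadm3, a cell adhesion molecule (−0.86), Pik3r3, a subunit of a lipid kinase (−0.83), Serinc2, a membrane protein (−0.79), and Mest, above, where the sets all but touched.

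Thyroid transcripts were lower relative to the rest. The follicular cell list had a median of −0.45 over 18 counted genes, and 2 were lower without overlap. Of the 18, 2 (11.1%) had a positive difference, against 26.1% of all genes. The median was −0.28 without replicate 9 and −0.20 in females alone. Tg, the precursor of thyroid hormone, was at 47903, 41835, 33699 and 20068 CPM in the Ucp1-high and 57583, 30530.5, 37001, 29774 and 45379.6 CPM in the Ucp1-low libraries (−0.19), with wide overlap. Hhex, a transcription factor of thyroid cells, was at 64.2, 69.5, 66.2 and 42.8 CPM, against 99.9, 112, 108, 90.3 and 77.0 CPM (−0.69), and Dio1, a deiodinase, at 239, 216, 245 and 200.1 CPM, against 316, 283, 365, 301 and 282 CPM (−0.46). These were the 2 without overlap. CPM are shares of a fixed total, so higher levels of some genes lower those of the rest, and with TMM scaling the list's median was −0.30.

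Other cell types differed less evenly. C cell markers had a median of −0.22 over 9 genes, which ran from −0.52 without replicate 7 to 0.12 without replicate 9 and was above 0 without replicate 3 (0.04) or 8 (0.02) too. Medians were −0.08 over 10 endothelial, −0.16 over 10 fibroblast and −0.37 over 10 macrophage markers. Of these 4 lists only Col1a1, a collagen of fibroblasts (−0.26), was lower without overlap. Endothelial markers were at 0.07 with TMM scaling. Without replicate 7, fibroblast markers were at −0.07 and macrophage markers at −0.23. Red blood cell markers had a median of 0.89 over 5 genes and Schwann cell markers of 0.45 over 4, or 0.22 without replicate 9, all with overlap. Summed red blood cell transcripts were 1.83 times as high in the mean of the Ucp1-high libraries. What part these cells have in the differences above was not tested.

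Whether genes moved with Ucp1 was then tested in the exposed mice, whose libraries were not used to set the NCT sets. No NT or PL library reached 150 CPM of Ucp1. It ranged from 2.84 to 104 CPM in NT and from 1.58 to 126 CPM in PL, so each gene was fitted against log2(Ucp1 CPM + 1) as a slope, in log2 units per doubling of Ucp1, with the quasi-likelihood test of edgeR. In NT, 0 of 12251 genes (0%) passed an adjusted p of 0.05 in either direction, 700 had an unadjusted p under 0.05, and the Wald test of DESeq2 called 4 positive and 4 negative slopes. In PL, 0 of 11483 genes (0%) passed, 776 had an unadjusted p under 0.05, and DESeq2 called 53 positive and 11 negative. NT and PL together with the mouse as a block gave 0 of 12466 genes (0%), with 673 at an unadjusted p under 0.05.

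The sizes of the slopes are given with that limit. In NT, Cox7a1 had a slope of 0.48 (SE 0.09, edgeR adjusted p = 0.675) and Cidea of 0.53 (SE 0.11, edgeR adjusted p = 0.675). They were 2 of the 5 genes with the smallest p, beside Btnl9, a butyrophilin-like protein of endothelium (0.31), Ehd4, an endocytosis protein (0.20), and Cfap20, a protein of cilia (−0.64). Adipoq had a slope of 0.08 and Fabp4 of 0.12, which without NT replicate 5 were −0.01 and −0.03. Of the 20 general adipocyte genes 17 passed the filter in NT, and all 17 had a positive slope, with a median of 0.13, and 11 of 13 thermogenic genes, with a median of 0.13, against 47.1% positive of all genes. Slopes of other markers in NT are given with the same limit, that no gene passed. Pth had a slope of −1.81, and the NT libraries with the most Pth, replicate 9 (28264 CPM) and replicate 7 (18123.5 CPM), had Ucp1 at 2.84 and 8.52 CPM. Endothelial markers were positive in 8 of 10 (median 0.04), pericyte markers in 8 of 10 (0.07), airway markers in 1 of 4 (−0.39), and the 1 muscle gene tested had a slope of 0.66. Their part in the fat gene slopes was not tested.

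Of the thermogenic genes that passed the default filter in PL, 6 of 9 had a positive slope, with a median of 0.12. The smallest p in PL belonged to Cdo1, with a slope of 0.58 (SE 0.09, edgeR adjusted p = 0.0903), which was also among the largest differences in NCT. Next were Dpep1, a membrane dipeptidase (0.70), Cd36 (0.61, SE 0.10, edgeR adjusted p = 0.104), Dact1, a regulator of Wnt signalling (0.45), and Gsn, an actin-severing protein (0.36). Adipoq had a slope of 0.62, Fabp4 of 0.56 and Fasn of 0.08. Of the 20 listed general adipocyte genes 12 passed the filter on counts in PL, and all 12 had a positive slope, with a median of 0.35, against 45.5% of all genes tested. Fibroblast markers had positive slopes in 9 of 9 genes too, with a median of 0.25, and red blood cell markers in 5 of 5, with a median of 0.30. Their part in the adipocyte slopes was not tested.

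In PL the default filter on counts dropped Cidea and Cox8b, since it asked for a minimum level in all 9 libraries. They fell short of it in replicate 9, which had the lowest Ucp1 (1.58 CPM), at 0.83 and 0.66 CPM. Elsewhere in PL Cidea was at 3.48 to 75.7 CPM and Cox8b at 2.93 to 69.0 CPM. The default filter thus left out both genes although they were that low only where Ucp1 was lowest. With a filter of 10 counts in at least 5 libraries, 6 genes passed in PL, all with a positive slope: Cidea (0.91, SE 0.10, edgeR adjusted p = 0.0134), Plin1 (0.82), Retn (0.94), Tnxb, a matrix protein (0.69), Trarg1, a partner of the glucose transporter of fat (0.59), and Cdo1 (0.57). Cox8b met this looser filter too but was not among the 6, nor among the 17 genes that passed in PL without a filter. Of the 9 PL libraries, replicate 9 moved the counts most: without it 5 positive and 1 negative slope passed under the default filter.

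Slopes of mitochondrial genes differed between lists. In PL, 21 of 22 tested oxidation genes had a positive slope, with a median of 0.11, and in NT 15 of 22, with a median of 0.03. Complex I had a median slope of 0.02 in PL and −0.00 in NT, and ATP synthase of 0.01 in PL and −0.03 in NT. The 13 mitochondrially encoded genes were all positive in PL, with a median of 0.12, and 11 of 12 tested in NT, with a median of 0.10. Whether slopes differed between PL and NT was tested, a comparison chosen after the data were seen, and 0 of 12466 genes passed with edgeR, with 532 at an unadjusted p under 0.05 with the mouse as a block and 362 without it.

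**Figure D5:**
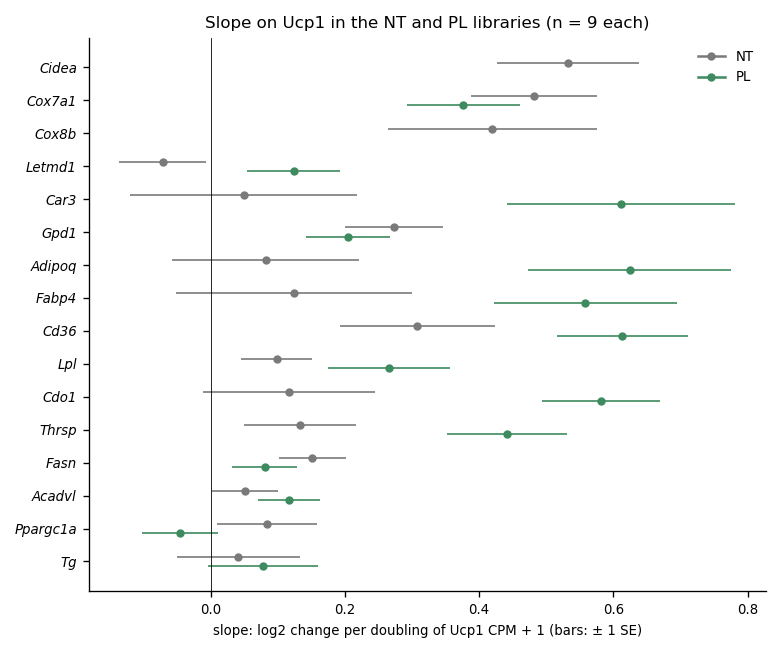
Slope of 16 genes on Ucp1 in the NT and the PL libraries (n = 9 each) from edgeR, in log2 units per doubling of Ucp1 CPM + 1, with bars of 1 SE. A gene without a PL point fell below the filter in at least 1 PL library and was not tested there. Cox7a1 and Gpd1 have positive slopes of similar size in both groups, and Car3, Adipoq, Fabp4 and Cdo1 have larger slopes in PL than in NT; no slope shown, and no difference of slopes, passed an adjusted p of 0.05.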

How the data were processed

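Mouse thyroid was laser-captured, RNA was isolated with a miRNeasy kit and libraries were made with QuantSeq, which counts the 3′ ends of transcripts, per the labels' protocols. The authors deposited a table of raw counts per gene for 27 libraries, with 54532 gene IDs. Per the submitters' processing notes, the tools were STAR, featureCounts and DESeq2 and the build was GRCm38, with no roles or versions. Annotation release and strand setting: not given in the sources used here. Reads of overlapping or antisense genes and of near-identical copies may therefore be shared.

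Gene names and positions came from GENCODE M21 (GRCm38), which matched 54409 IDs. The 123 unmatched IDs held 0.0251% of counts and stayed in the totals. CPM were counts over the library total, times 1e+06. Differences were of mean log2(CPM + 1), with a pseudocount of 1, which understates differences of low genes. The NCT sets were chosen by Ucp1, so that contrast has values and no test. Libraries held 2923851 to 14148601 counts. In all 36 pairs of NCT libraries the counts differed by more than sampling noise, with the lowest chi-square per degree of freedom at 12.3.

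In NT and in PL each gene was fitted against log2(Ucp1 CPM + 1) with edgeR 4.0.16 (TMM, filterByExpr, robust quasi-likelihood, two-sided, Benjamini-Hochberg adjustment at 0.05), with the Wald test of DESeq2 1.42.0 as an alternative, in R 4.3.3. NT and PL were paired by the mouse named in the labels. Correlations of the paired deviations ran from -0.000422 to 0.320, and 6 of 9 were over 0.1. Alternatives changed the scaling, pseudocount, filters, Ucp1 threshold, libraries, tool, sex term and block.

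The members and gene lists were chosen with earlier results of these data known. Genes were named by rule: Cidea, Adipoq and 12 other genes set by name, up to 6 genes of each list with the largest differences and the 1 with the smallest, the 12 largest positive and 8 largest negative differences without overlap where the NCT mean reached 20 CPM, and the smallest p in NT and PL. Any other gene named without this rule was chosen after its values were seen. Promoter sequences are from RefSeq, and protein sequences were not used here. Some genes that the rule names are counted but not reported here.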

Additional observations from a re-analysis of the deposited data

Results flagged for a closer look

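In 10 of 125 genes examined over the 9 NCT libraries, the highest or lowest library stood apart from its nearest neighbor by an unusually large part of the whole range on the log2(CPM + 1) scale. Chance gives about 1 such gap in 20 groups. The 125 genes share the same 9 libraries and many were named for large differences, so no excess over chance is read from the 10. Replicate 9, which has the highest Ucp1 and the fewest counts, held 6 of them. Lipf and Lyz2 were set by name with their level there already known, so their gaps are a description only. Lipf was at 7552 CPM in replicate 9, with the next library at 16.02 CPM (gap 0.891 of the range), and Lyz2 was at 12742 CPM, next to 810.5 CPM (0.739). Plin4, a droplet protein of fat cells, was at 90.3 CPM, next to 33.0 CPM (0.528), and Cebpb, a transcription factor of fat cell development among other roles, was at 15.4 CPM, next to 9.94 CPM (0.531). Lmod2 was lowest in replicate 9 at 5.13 CPM, next to 19.0 CPM (0.546), and so was Ckmt1 at 27.7 CPM, next to 41.5 CPM (0.511).

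The other 4 were mitochondrial genes in Ucp1-low libraries. Ndufs8, a complex I subunit, was lowest in replicate 1 at 25.0 CPM, next to 42.0 CPM (0.525). Atp5j, an ATP synthase subunit, was highest in replicate 3 at 462 CPM, next to 268 CPM (0.579). Replicate 8 was lowest for Atp5f1, another ATP synthase subunit, at 161 CPM, next to 212 CPM (0.590), and for Slc25a5, an ATP/ADP carrier, at 110.2 CPM, next to 188 CPM (0.512).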

How the results depend on the processing

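Depth limits the low genes most: 5 CPM is 14.6 counts in NCT replicate 9. Thresholds of 100 and 200 CPM of Ucp1 gave the same sets, since no NCT library lay between 96.8 and 209.5 CPM. Pseudocounts of 0.25 and 5 do not enter the rule on overlap. These settings thus could not change the 80 higher and 226 lower genes of the NCT contrast and are no check on them. TMM factors gave 132 higher and 82 lower, sharing 68 and 74 with plain CPM, and DESeq2 size factors gave 139 and 76, sharing 68 and 69. Totals without the mitochondrially encoded genes gave 95 and 180. Without a filter on low values 143 were higher and 265 lower. Smaller sets separate more easily and keep every gene called in the full sets. Females alone gave 614 and 906. Leaving out the libraries over 2000 CPM of Pth or Lipf gave 337 and 1327. Of the 337 higher genes 73 were listed, 28.6% of the listed genes against 2.90% of all. Leaving out each NCT library in turn gave 101 to 138 higher and 264 to 658 lower genes. The higher count moved by over 1.5 times without replicate 2 (132), 5 (138), 7 (125), 8 (132) or 9 (121). The lower count did so without replicate 1 (382), 2 (593), 3 (489), 5 (658), 6 (397) or 8 (567).

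In NT, where edgeR called 0 genes, DESeq2 called 4 positive and 4 negative slopes. In PL, DESeq2 called 53 and 11, edgeR without a filter 17 positive, with 10 counts in at least 5 libraries 6 positive, and without libraries over 2000 CPM of Pth 1 positive. Leaving out each PL library in turn gave 0 to 5 positive and 0 to 1 negative: 1 positive without replicate 2, 6 or 8, and 5 positive and 1 negative without replicate 9. NT and PL together gave 15 positive and 1 negative slope without a replicate block and 0 with the mouse as a replicate block, the fit that the pairing of NT and PL by mouse asks for. In that block fit the slope of Btnl9 was -0.0933, the other way from NT alone. Over single NT libraries left out, the slope of Adipoq ran from -0.0133 (without replicate 5) to 0.235 (without replicate 9) and that of Fabp4 from -0.0289 to 0.348 with the same replicates. Over single PL libraries left out, the slope of Fasn ran from -0.0168 (without replicate 5) to 0.114 (without replicate 4). The cause of these changes was not tested.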
